A study of Mus musculus with 8 samples.

Results

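Notch signaling was examined in cells sorted as satellite cells (SCs), the resident stem cells of skeletal muscle, through 10 genes of the pathway: the target genes Heyl, Hey1, Hes1 and Nrarp, the receptors Notch1 and Notch2, the ligands Jag1 and Dll1, and the nuclear factors Rbpj and Maml1. All 10 were found by symbol among the 52636 genes of the deposited table. Heyl was chosen by its read counts, which lay in exercise libraries only, so its values are given as a description with no test. The other 9 genes were chosen for their place in the pathway.

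Notch receptors sit on the cell surface and are bound by Delta and Jagged ligands on a neighbouring cell. Binding exposes the receptor to cleavage by ADAM proteases and then by gamma-secretase, and the freed intracellular part joins the DNA-binding protein Rbpj and a Mastermind coactivator to switch on target genes, among them the Hes and Hey repressors. In SCs this pathway is known for holding the cells in quiescence.

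The cells came from tibialis anterior muscle of male C57B/6J mice that were 10 weeks old at the start. Control mice were sedentary, and mice of the exercise group ran at 12 m/min on a treadmill for 30 min per day on 4 days per week over 4 weeks. About 800 cells per library were sorted as CD45-, CD11b-, CD31-, Sca1-, CD34+ and α7-integrin+ and their RNA was amplified before sequencing, with 4 control and 4 exercise libraries. The study counts mice as its samples, but the labels tie no library to a mouse, so p-values measure the spread between these libraries.

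The values were FPKM, which are reads per kilobase of gene and per unit of library size, so levels can be compared between genes. Control libraries held 2339966 to 3013354 reads on genes and exercise libraries 1011737 to 1200221, recovered from the FPKM values. Where a library had 0 reads of a gene, the level of 3 reads is given as the limit, which covers counting error only because amplified reads are not independent molecules. The weight of a read in FPKM follows the size factor of its library, which was 1.33 to 2.31 in control and 0.970, 0.926, 0.643 and 0.167 in exercise 1 to 4, so that one read weighed most in exercise 4. Mitochondrial transcripts took 2.09% to 15.3% of reads in control, and 7.85%, 7.56%, 50.2% and 68.7% in exercise 1 to 4. Control libraries had reads of 5169 to 7307 genes and exercise libraries of 2348 to 3289, so fewer genes were read in exercise as a whole. The part of these differences in the control-only genes described here was not tested. Exercise 1 and 2 were close to each other, since a chi-square test on reads gave 3.86 for each degree of freedom, against 82.6 or more in every other pair. Control 4 kept a median of 0.281 of the read share of genes found with 50 or more reads in control 1 and none in control 3, and 0.714 of that of genes in control 3 and not in control 1. For genes with 50 or more reads in exercise 1 and none in exercise 4, exercise 3 held a median of 0.299 of the share, and 0.677 in the reverse case. Whether libraries of a group share material was not tested, and results are also given with exercise 1 and 2 averaged and control 4 and exercise 3 left out.

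Of the 14 SC markers, Pax7, Itga7, Cdh15 and Calcr had no read in any of the 8 libraries. Pax7 is the defining transcription factor of SCs and Itga7 encodes the α7-integrin of the sort. Myf5 had 3 reads in control 2 and 1 in control 3, and Myod1 had 6 in control 3 and 7 in control 4, with none in exercise. Cd34, the other positive marker of the sort, had reads in all 8 libraries, with 2 to 42 reads in control and 4 to 112 in exercise (log2 difference 1.68, limma adjusted p = 0.0670). In all, 10 markers of the list had at least 1 read, and the list summed to 58.1 to 87.2 FPKM in control and 74.6 to 124 FPKM in exercise. In every library the list of fibro-adipogenic markers summed to at least 3518 FPKM and that of myofibre markers to at least 19592 FPKM, so the markers do not bear out the label, and the cells are called here by their sort.

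Heyl encodes a basic helix-loop-helix repressor of the Hey family and is known as a Notch target. It lies on chromosome 4 (mm10, 123233556 to 123249875, plus strand), and no other gene with reads overlaps it. Heyl had no read in any control library and 243, 222, 67 and 1 reads in exercise 1, 2, 3 and 4. These were 28.4, 27.2, 11.8 and 0.679 FPKM, with a mean of 17.0 ± 13.3 FPKM (SD, n = 4). Exercise 1 and 2 were high, exercise 3 lay between, and the single read of exercise 4 lay under 2.04 FPKM, the level of 3 reads there. The limit for the empty control libraries was 0.147 to 0.256 FPKM. With each control library set to 3 reads, mean Heyl was at least 91.5-fold higher in exercise. With exercise 1 and 2 averaged and control 4 and exercise 3 left out it was at least 71.5-fold higher, over 3 control and 2 exercise samples. In such pooled cells, more cells that express a gene and more of its RNA per cell cannot be told apart.

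**Figure D1:**
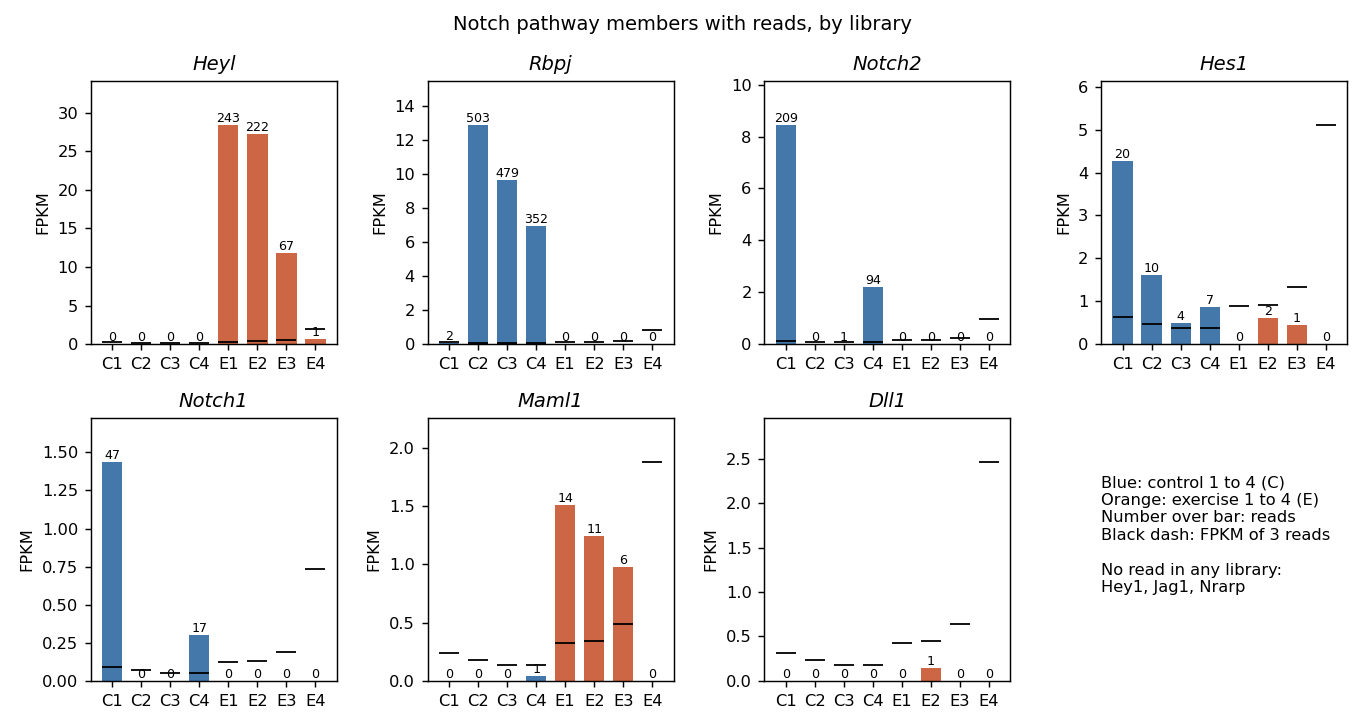
FPKM of the 7 members with reads (vertical axis, linear, from 0, a separate scale for each gene) in control libraries C1 to C4 and exercise libraries E1 to E4. Numbers over the bars are reads and black dashes mark the FPKM of 3 reads. Heyl has bars in exercise only, reaching 28.4 FPKM, and Rbpj, Notch1 and Notch2 have bars in control only.

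Among the genes with reads, Heyl ranked 631 of 3036 by FPKM in exercise 1 and 653 of 3020 in exercise 2, and 2163 of 2348 in exercise 4. Its share of all reads in exercise 3 was 0.243 of that in exercise 1 (95% exact binomial interval 0.183 to 0.320). This and the other intervals of read shares cover counting error only. Exercise 2 held 0.956 of the Heyl share of exercise 1 (0.793 to 1.15). Of the 9029 genes with a read in any library, 90 (0.997%) had reads in all 4 exercise libraries and in none of the controls. Heyl stood at rank 30 of these 90 by mean exercise FPKM, and 40 of the 90 had a single read in exercise 4 as Heyl did. Just outside that pattern lay Maml1, with 1 read in control 4 and none in exercise 4, and just inside it, besides Heyl, lay Fbxw7.

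The other Notch targets did not share the values of Heyl. Hes1 encodes a repressor widely used as a readout of Notch (chromosome 16, 30064384 to 30067796, plus strand). It had 20, 10, 4 and 7 reads in control 1 to 4, or 4.28, 1.60, 0.503 and 0.862 FPKM. In exercise 1 to 4 it had 0, 2, 1 and 0 reads, or 0, 0.615, 0.443 and 0 FPKM. The groups overlapped, and the values of all 4 exercise libraries were under the level of 3 reads, which was 0.881 to 5.11 FPKM. Control averaged 1.81 ± 1.71 FPKM and exercise 0.265 ± 0.313 FPKM (SD, n = 4 each), which is a log2(FPKM + 1) difference of -1.01 (standard error 0.52, limma adjusted p = 0.138). The difference in Hes1 did not pass the test. With quantile normalization the difference was 0.19.

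Hey1 (chromosome 3, 8663359 to 8667256, minus strand), the family member closest in name to Heyl, had no read in any of the 8 libraries. Nrarp (chromosome 2, 25180758 to 25183339, plus strand), a Notch target whose product dampens the pathway, had none either. The limit set by 3 reads was 3.19 FPKM for Hey1 and 4.03 FPKM for Nrarp in exercise 4, and 0.231 and 0.292 FPKM in control 4. Of the 7 Hes and Hey genes listed as targets, which add Hes5, Hes6, Hes7 and Hey2 to Heyl, Hes1 and Hey1, Heyl and Hes1 were the 2 with a read.

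The receptors had reads in control libraries only, and mainly in control 1 and 4. Notch2 (chromosome 3, 98013527 to 98150361, plus strand) had 209, 0, 1 and 94 reads in control 1 to 4, or 8.45, 0, 0.0238 and 2.19 FPKM, and none in exercise. Control 2 was as empty as the exercise libraries, so the groups overlapped. The log2(FPKM + 1) difference was -1.24 (standard error 0.70, limma adjusted p = 0.168). Gm42819, a gene with 2 reads over all libraries, overlaps Notch2 on the same strand. With exercise set to 3 reads the Notch2 mean was at least 6.85-fold lower there, and without control 1 at least 1.89-fold lower.

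Notch1 (chromosome 2, 26457903 to 26516663, minus strand) had 47 reads in control 1 and 17 in control 4, or 1.44 and 0.300 FPKM, and none in the other 6 libraries. It was under the filter of a mean of 1 FPKM, and its groups overlapped (log2 difference -0.42, exact two-sided permutation p = 0.429). The limit in exercise 4 was 0.731 FPKM, above the value of control 4. The share of reads in control 4 relative to control 1 was 0.303 for Notch1 (95% exact binomial interval 0.163 to 0.538) and 0.377 for Notch2 (0.292 to 0.483), by counting error only. Notch3 and Notch4 had no read.

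Ligand genes had almost no reads. Dll1, a Delta ligand (chromosome 17, 15367354 to 15376872, minus strand), had 1 read in exercise 2, or 0.149 FPKM, and none in the other 7 libraries (exact two-sided permutation p = 1). Jag1, a Jagged ligand (chromosome 2, 137081456 to 137116644, minus strand), had no read in any library, with a limit of 0.129 FPKM in control 4 and 1.79 FPKM in exercise 4. Of 7 ligand genes listed, Dll1 and Dlk1 each had 1 read, and the other 5 had none.

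Rbpj, the DNA-binding factor through which Notch receptors act (chromosome 5, 53466152 to 53657362, plus strand), had 2, 503, 479 and 352 reads in control 1 to 4. These were 0.0684, 12.9, 9.62 and 6.93 FPKM. It had no read in any exercise library. Control 2 to 4 were high, control 1 was near 0, and the groups did not overlap because the exercise values were all 0, though the 0.0684 FPKM of control 1 lay under the level of 3 reads in every exercise library. Mean Rbpj was 7.38 ± 5.45 FPKM (SD, n = 4) in control, at least 22.4-fold above exercise set to 3 reads per library. The log2(FPKM + 1) difference was -2.57 (standard error 0.81, limma adjusted p = 0.0375). Rbpj passed the filter on low values through control alone, so this p is a description and not independent support for a difference. Without control 1 the adjusted p was 0.000185, and in each of the other 7 fits that left out 1 library it was above 0.05, from 0.0615 to 0.1001. With exercise 1 and 2 averaged and control 4 and exercise 3 left out, the bound was 15.7-fold and the adjusted p was 0.471, over 3 control and 2 exercise samples.

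Rbpj and Notch2 both had reads in control libraries only, so their promoters are shown (RefSeq, GRCm38.p6, 250 bases before and 50 after a gene start). Promoter windows were found for 7 of the 10 members, without Heyl, Hey1 and Hes1. Capitals mark the 6-base core motif of the Rbpj protein, TGGGAA, or its reverse complement TTCCCA. The Rbpj window (chr5:53590096-53590395, plus strand) holds 2 matches and the Notch2 window (chr3:98013288-98013587, plus strand) holds 0. The RefSeq start of this Rbpj window lies inside the gene as given above, which begins at base 53466152.
Rbpj: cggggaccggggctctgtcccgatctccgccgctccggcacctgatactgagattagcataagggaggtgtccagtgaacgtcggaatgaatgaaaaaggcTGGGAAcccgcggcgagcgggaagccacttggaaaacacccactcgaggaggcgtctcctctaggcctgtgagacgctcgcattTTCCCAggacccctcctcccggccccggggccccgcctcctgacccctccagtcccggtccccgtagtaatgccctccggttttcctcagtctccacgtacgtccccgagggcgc
Notch2: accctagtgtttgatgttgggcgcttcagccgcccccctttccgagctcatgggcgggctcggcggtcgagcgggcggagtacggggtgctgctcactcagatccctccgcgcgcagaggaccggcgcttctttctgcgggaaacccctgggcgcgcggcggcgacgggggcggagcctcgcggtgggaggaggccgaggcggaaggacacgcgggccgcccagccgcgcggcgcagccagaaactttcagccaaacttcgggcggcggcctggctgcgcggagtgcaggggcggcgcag
Of all 32851 promoter windows of that length, 25.6% held the motif on either strand, so a match is common. Among the 9 windows of the members, the 2 with a match were both of Rbpj and overlap each other. The expression values do not show whether the motif is bound.

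Maml1, a Mastermind coactivator of the complex with Rbpj (chromosome 11, 50255634 to 50292311, minus strand), had the reverse distribution. It had 0, 0, 0 and 1 reads in control 1 to 4 and 14, 11, 6 and 0 reads in exercise 1 to 4, or 1.51, 1.25, 0.979 and 0 FPKM in exercise. Exercise 1 to 3 were higher than every control, and exercise 4, with a limit of 1.88 FPKM, was not. The log2 difference was 0.85 (exact two-sided permutation p = 0.143), and without exercise 4 it was 1.15 (p = 0.0286, the smallest that this permutation test allows). Leaving out any one of the other 7 libraries gave p = 0.143, as did averaging exercise 1 and 2, and also dropping control 4 and exercise 3 gave p = 0.4 (exact permutation). The related Maml2 had 204, 0, 5 and 63 reads in control 1 to 4 and none in exercise (log2 difference -1.47, limma adjusted p = 0.150). Maml3 had 1 read, in exercise 2.

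Of the 10 members, 7 had a read in some library, and 17.2% of all symbols of the table did. Heyl, Rbpj, Notch2 and Hes1 passed the filter of a mean of 1 FPKM, which 8.24% of all symbols passed. The first 3 passed through the one group in which they had reads and so had to differ, and the counts below that include Rbpj and Notch2 are descriptions.

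The wider pathway was read against the whole table. A list of 71 Notch pathway genes held 42 with a read in any library, of which 24 had reads in control only, 5 in exercise only and 13 in both. Among all 9029 genes with a read, 52.4% had reads in control libraries only. Leaving Heyl aside, 15 genes of the list passed the filter, and 5 of them had a limma adjusted p under 0.05. That is 33.3%, against 35.6% of all 4328 genes tested. Of the 15, 7 had no read in one of the groups and passed the filter through the other, and 4 of the 5 calls were among them. Of the 8 with reads in both groups 1 was called, Psenen, where 27.6% of the 2811 such genes of the table were. Of the 5, 1 was higher and 4 were lower in exercise, where 8.78% of all genes were called higher and 26.8% lower. The difference was below 0 in 12 of the 15 genes (80.0%) and in 68.3% of all genes tested. The median log2 difference of the 15 genes was -1.47, and that of all genes tested was -1.42. With genes at 0 throughout a group set to 3 reads per library, these medians were -1.01 and -0.79. In 5 of the 15 genes (33.3%) the groups did not overlap, against 31.6% of all genes tested. With quantile normalization, which moved the median of all genes to -0.44, 566 genes were called higher and 375 lower, against 380 and 1161, and of the 15 pathway genes Fbxw7 alone was called. Leaving out any one of control 2, 3 and 4 or exercise 1, 2 and 3 left 1 or 2 of these 5 calls, and leaving out exercise 4 left 3.

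**Figure D2:**
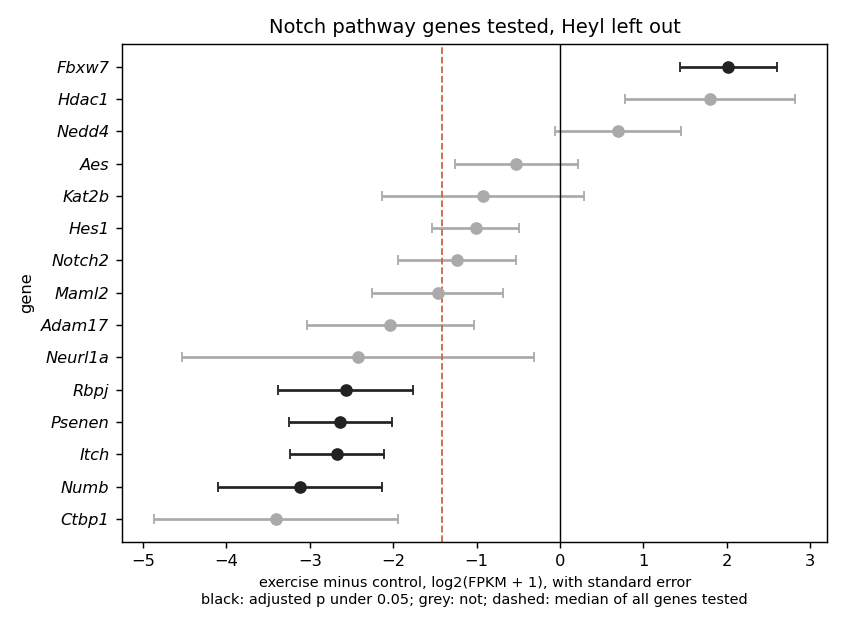
Difference between exercise and control in log2(FPKM + 1) (horizontal axis), with its standard error, for the 15 Notch pathway genes tested other than Heyl. Black points have an adjusted p under 0.05, grey points do not, and the dashed line is the median of all genes tested, -1.42. Fbxw7 is the one black point above 0, and Rbpj, Psenen, Itch and Numb are the 4 below.

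Of the 4 genes called lower, Psenen alone had a read in exercise. Besides Rbpj they were Psenen, a subunit of the gamma-secretase that cuts the receptor, Itch, a ubiquitin ligase that acts on Notch, and Numb, an inhibitor of Notch. Psenen had 3.08, 13.1, 7.43 and 5.12 FPKM in control 1 to 4 and 2 reads (0.983 FPKM) in exercise 2 alone, with a log2 difference of -2.64 (standard error 0.62, limma adjusted p = 0.0139). Itch had 2.38, 10.6, 5.81 and 5.27 FPKM in control and no read in exercise (log2 difference -2.68, standard error 0.56, limma adjusted p = 0.00891). Numb had 0, 26.8, 17.3 and 10.1 FPKM in control and no read in exercise (log2 difference -3.11, standard error 0.98, limma adjusted p = 0.0374). Itch, Numb and Psenen passed the filter through control alone, as Rbpj did, so their p-values are descriptions too and no sign of stability. Of the fits that left out 1 library, 6 of 8 gave Psenen an adjusted p under 0.05, with 8 of 8 for Itch and the fit without control 1 alone for Numb and Rbpj. With exercise 1 and 2 averaged and control 4 and exercise 3 left out, all 4 had an adjusted p of 0.471.

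Fbxw7, whose product marks the Notch intracellular domain for breakdown, was the one gene of the 15 called higher, and like Rbpj it passed the filter through one group alone. It had no read in control and 51, 72, 28 and 1 reads in exercise 1 to 4, or 4.33, 6.40, 3.58 and 0.492 FPKM. Exercise 1 to 3 were well above the controls, and exercise 4 again held a single read. The log2 difference was 2.02 (standard error 0.58, limma adjusted p = 0.0300), and the mean was at least 27.4-fold higher in exercise with control set to 3 reads. As for Rbpj, this p is a description. It was 0.0208 without control 1 and 0.00264 without exercise 4, and lay between 0.0586 and 0.0930 in the other 6 fits that left out 1 library. With exercise 1 and 2 averaged and control 4 and exercise 3 left out it was 0.471.

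Of the 5 pathway genes outside the members with the highest mean FPKM, Numb is described above and the rest did not pass the test. Neurl1a, a ubiquitin ligase of the Neuralized family that acts on ligands, had 663, 0, 9.18 and 142 FPKM in control 1 to 4 and 0, 0, 13.3 and 81.0 in exercise 1 to 4 (log2 difference -2.42, limma adjusted p = 0.354). Ctbp1, a co-repressor, had 316, 1.61, 2.23 and 64.0 FPKM in control and 0 to 1.96 in exercise (log2 difference -3.40, limma adjusted p = 0.0896). Kat2b, an acetyltransferase, had 0.717 to 52.7 FPKM in control and 2.21 to 38.5 in exercise. Nedd4, a ubiquitin ligase, had 7.35 to 16.3 FPKM in control and 4.74 to 29.9 in exercise. The spread within a group covered the difference in each of these genes, with adjusted p of 0.537 for Kat2b and 0.453 for Nedd4.

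Control libraries held different pathway genes. Of 20 pathway genes with at least 20 reads in some control library, 12 had their highest read share in control 1, 7 in control 2, 1 in control 4 and 0 in control 3. Notch1, Rfng, Tle1, Tle2 and Dtx3l had reads in control 1 and 4 and nowhere else, while Pofut1, Poglut1, Ep300, Spen and Numb had reads in control 2, 3 and 4 and nowhere else. Rbpj and its receptors were thus read mainly in different control libraries, with control 4 holding both. Control 1 had 209 reads of Notch2 and 2 of Rbpj, and control 2 had 0 and 503.

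**Figure D3:**
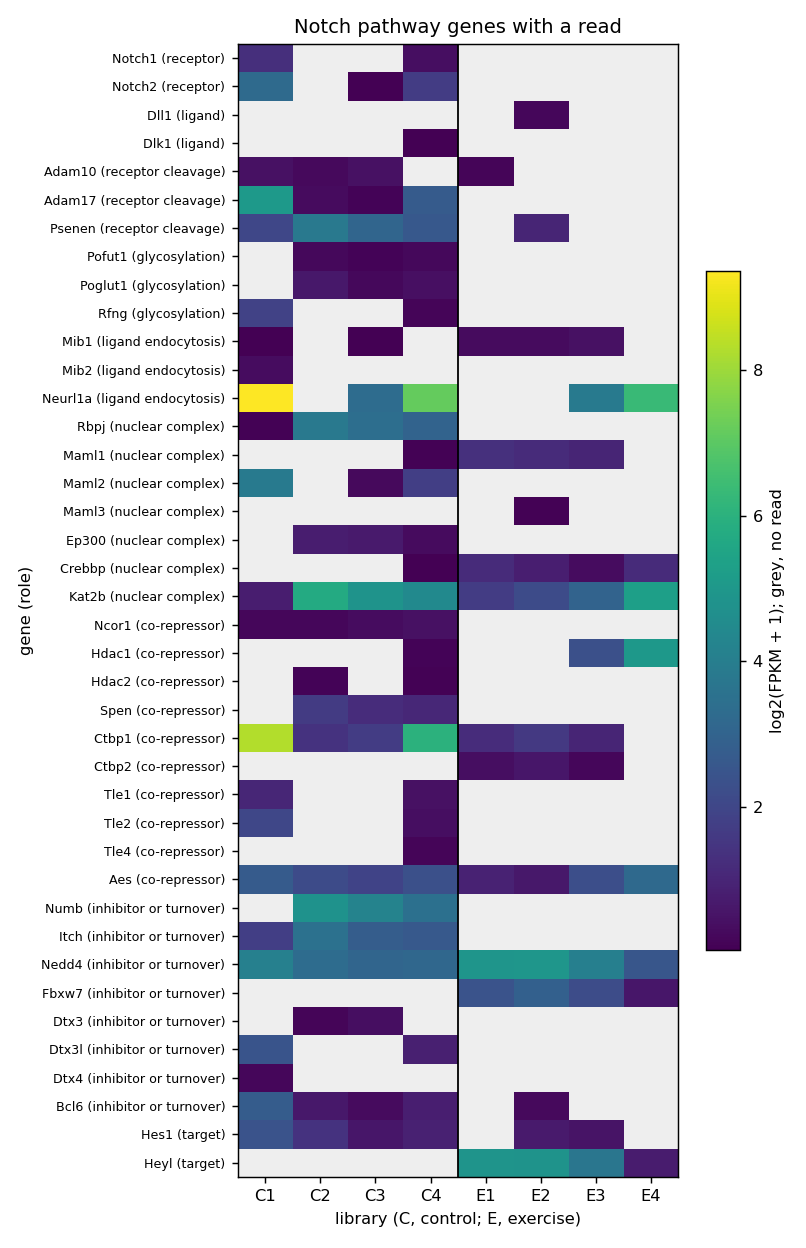
Level of 40 of the 42 Notch pathway genes with a read (rows, with their role) in the 8 libraries (columns), as log2(FPKM + 1) by colour, with grey for no read. The right side is mostly grey, with Heyl and Fbxw7 filled in all 4 exercise columns and in no control column. On the control side some genes are filled in C1 and C4 only, some in C2 to C4 only, and others in all 4.

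By Pearson correlation of log2(FPKM + 1) over the 8 libraries, the 5 genes most like Heyl were Elf2, Wdsub1, Kcnc4, Ddx50 and Ubn1, with r of at least 0.998 and Spearman's rho from 0.913 to 1. Elf2 encodes an ETS transcription factor, Kcnc4 a voltage-gated potassium channel, Ddx50 an RNA helicase and Ubn1 a histone chaperone subunit. Kcnc4 had 182, 170, 62 and 1 reads in exercise 1 to 4 and none in control, and Ddx50 had 339, 331, 111 and 1 in exercise and 6 over the 4 controls. Such profiles were not rare, since 292 of the 4327 other genes that passed the filter (6.75%) had an r above 0.95 with Heyl. The 8 points share their group and the order of the exercise libraries, so these values describe the pattern and carry no p. Within the pathway, Fbxw7 had an r of 0.99 with Heyl, Nedd4 0.81, Hes1 -0.49 and Rbpj -0.65.

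**Figure D4:**
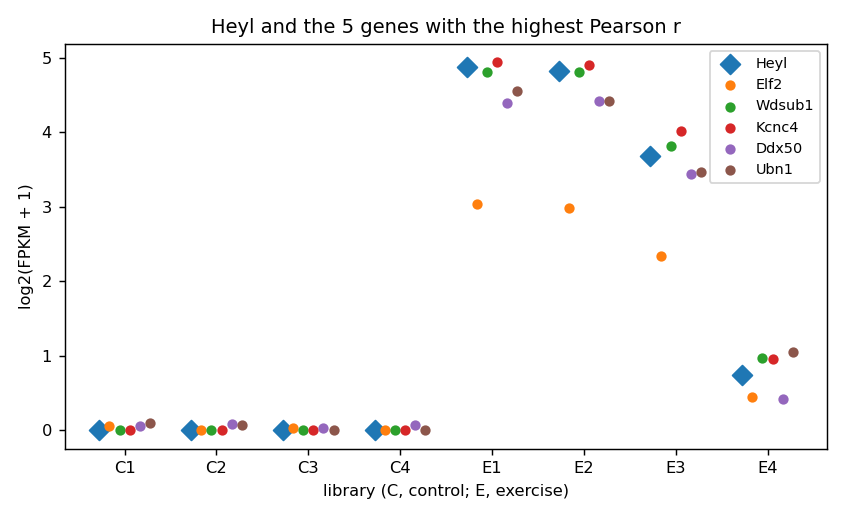
log2(FPKM + 1) (vertical axis) of Heyl (diamonds) and of the 5 genes with the highest Pearson correlation with it (circles, shifted sideways for legibility) in control libraries C1 to C4 and exercise libraries E1 to E4. All 6 genes lie near 0 in control, are highest in E1 and E2, lower in E3 and near 1 or below in E4.

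Markers of other cells moved with Heyl in part. Of 12 markers of mural cells (pericytes and smooth muscle), in which Heyl is also known to be expressed, 9 had no read in any library, among them Rgs5, Cspg4, Kcnj8, Abcc9 and Notch3. Myh11, the smooth muscle myosin heavy chain, had no read in control and 777, 757, 262 and 6 reads in exercise 1 to 4 (r of 0.99 with Heyl). Pdgfrb, a pericyte receptor, had 2.02 to 4.65 FPKM in control and 17.5, 17.4, 7.90 and 0.633 in exercise 1 to 4 (limma adjusted p = 0.287, r of 0.87 with Heyl). Acta2, smooth muscle actin, lay the other way, with 3, 0, 301 and 249 reads in control 1 to 4 and 0, 1, 4 and 1 in exercise 1 to 4 (log2 difference -1.96, limma adjusted p = 0.220). The summed level of the mural list was 2.88 to 46.1 FPKM in control and 5.72 to 89.3 in exercise, so the groups overlapped. Of 12 endothelial markers, 9 had no read, Pecam1 and Cdh5 among them. Kdr, a VEGF receptor, had 0, 2994, 1669 and 1076 FPKM in control 1 to 4 and at most 0.530 FPKM in exercise. Its log2 difference was -7.82 (limma adjusted p = 0.0281), and it passed the filter through control alone, so this p is a description. Tek, an angiopoietin receptor, had 1 read over the 4 controls and 189, 194, 77 and 6 reads in exercise 1 to 4 (r of 0.96 with Heyl). The endothelial list summed to 0.0925 to 2994 FPKM in control and 4.42 to 26.2 in exercise. The tendon factor Scx had 3 reads over the 4 controls and 191, 185, 62 and 1 reads in exercise 1 to 4 (r of 0.99 with Heyl). It was the 1 gene called, as higher, among the 4 tested of 5 tendon markers. Scx passed the filter through exercise alone, so this call is a description. Of all genes tested, 8.78% were called higher and 26.8% lower. The tendon list summed to 456 to 1013 FPKM in control and 243 to 1378 in exercise. The fibro-adipogenic list had reads of all 10 genes, with 2 of 9 tested called higher and 1 lower, and summed to 3518 to 5817 FPKM in control and 4040 to 9990 in exercise, the myofibre list had reads of all 10, with 1 of 9 tested called lower, and summed to 32693 to 56176 and 19592 to 59479, and the Schwann cell list had reads of 3 of 6, with 1 of 3 tested called lower, and summed to 1.18 to 20.6 and 0 to 4.68. None of the 10 immune markers had a read. The part of other cells in the Heyl values was not tested.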

How the data were processed

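Cells sorted as SCs were compared in 4 control and 4 exercise libraries, grouped by the sample titles. The authors deposited FPKM values per gene and library. The labels and methods name Bowtie 0.12.9 for alignment, Cufflinks 2.1.1 for FPKM and HTSeq for counts, on mm10, and per the methods the authors tested with DESeq2. Deposited FPKM multiplied by gene length came out as whole multiples of 1 step in each library (0 values off by more than 0.001), which gave the reads. The library size in these values equals a median-of-ratios size factor of the reads times the geometric mean of the read totals. Rows sharing a symbol were summed, leaving 101 fewer. All 10 members have the same coordinates in GENCODE M21.

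Genes averaging 1 FPKM or more were tested on log2(FPKM + 1), a scale that understates the change of low genes, with limma 3.58.1 in R 4.3.3 (trend, two-sided, Benjamini-Hochberg over 4328 genes). Members under the filter were tested by exact permutation (two-sided, 70 assignments), where p cannot fall below 0.0286. Other steps used Python 3.11.15. The limma step was tested on simulated data.

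The members, gene lists and tests were chosen with earlier results of these data known. Named genes were the members, other pathway genes called or among the 5 highest by mean FPKM, the 5 most like Heyl, and set markers. Tek, Scx, Myh11, Acta2, Kdr, Maml2, Maml3 and genes named in counts were named after their values were seen. The alternatives were another pseudocount (0.1), 2 other filters, 2 scalings, no trend, a block for the replicate number, the highest row of a shared symbol, voom on recovered reads, each library left out, and 2 fits with related libraries averaged or left out. Values of 2 genes of the pathway list are not reported here by name and are left out of the map of the pathway, though they stay in the counts.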

Additional observations from a re-analysis of the deposited data

Results flagged for a closer look

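In 28 groups of 4 libraries with unequal values, over the 22 members and tested pathway genes, 4 held a library far from the other 3. In each, the other 3 libraries had no read. A group with reads in 1 library is always flagged, so the usual chance rate of about 1 in 20 groups does not apply. Dll1 in exercise 2 had a log2(FPKM + 1) of 0.20 from 1 read, Maml1 in control 4 had 0.064 from 1 read, Hdac1 in control 4 had 0.10 from 1 read and Psenen in exercise 2 had 0.99 from 2 reads. All 4 rest on fewer than the 3 reads that a count of 0 allows.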

How the results depend on the processing

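The number of genes called over the whole table was 1541, and the 15 tested pathway genes other than Heyl gave 5. With no filter 840 of 9029 genes were called, and with quantile normalization 941, of which 566 were higher and 375 lower in exercise, against 380 and 1161. Quantile normalization moved the median of all genes from -1.42 to -0.44. Averaging exercise 1 and 2 gave 596, and dropping control 4 and exercise 3 as well gave 0, with 469 at an unadjusted p under 0.05 by limma. Leaving out 1 library gave 527 (without exercise 3) to 1899 (without control 1), and it was 599 or fewer without control 4 or exercise 1, 2 or 3, 804 without control 3, 1003 without control 2 and 1411 without exercise 4. The pathway count was 3 of 41 with no filter, 2 of 7 with at least 1 FPKM required in 4 libraries (1121 of 2669 over the whole table), 1 of 15 with quantile normalization, 2 after averaging exercise 1 and 2, 0 after also dropping control 4 and exercise 3 (0 at an unadjusted p under 0.05 too), and 1 to 5 without 1 library. It was 1 without exercise 1 or 3, 2 without exercise 2 or control 2, 3 or 4, 3 without exercise 4 and 5 without control 1. Hes1 changed sign to 0.19 with quantile normalization. Rbpj had the same direction in all of its 18 other settings, with a log2 difference from -6.25 to -1.79, and an adjusted p under 0.05 in 6. The cause of these changes was not tested. The Heyl difference was 2.80 to 4.46 in settings that kept a pseudocount of 1 and FPKM, 6.53 with a pseudocount of 0.1 and 8.35 between the group means of the log2 values that voom takes. With no read in control it depends on what is added to 0.

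Same-numbered control and exercise libraries did not deviate together (correlations of -0.017 to 0.039 over genes). The values thus gave no sign that the numbers pair the samples. They cannot exclude pairing, since libraries within a group also resemble each other. With the replicate block 1059 genes were called, 3 of them in the pathway list, and Rbpj had an adjusted p of 0.0538. The low members are limited most in exercise 4, whose size factor of 0.167 makes 3 reads of Hes1 weigh 5.11 FPKM.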

Other observations

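Among pathway genes under the filter, chosen here after their values were seen, the related acetyltransferases Crebbp and Ep300, both coactivators of the Notch complex, were read in opposite groups. Crebbp had 28, 16, 4 and 5 reads in exercise 1 to 4 and 1 read in control 4. Ep300 had 32, 36 and 14 reads in control 2 to 4 and none in control 1 or in exercise. Spen, a co-repressor of Rbpj, had 93, 74 and 61 reads in control 2 to 4 and none elsewhere. Bcl6 had 88, 11, 6 and 20 reads in control 1 to 4 and 2 in exercise 2.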
